A study of Caenorhabditis elegans with 2 samples.

Results

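The genes described here belong to 5 name families of Caenorhabditis elegans, fbxa, fbxb and fbxc (F-box genes) and math and bath (MATH and BTB-MATH genes). They were chosen by a measured value: a protein-coding gene entered when the summit of a candidate region of HPL-2 chromatin immunoprecipitation, called on both libraries pooled, lay within 500 bp of an annotated 5′ end. Of the 395 family genes in the annotation (WBcel235, Ensembl release 115), 121 met the rule, and they are called the members. Names alone placed a gene in a family, and the presence of the domains was not checked.

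F-box proteins are substrate receptors of SCF ubiquitin ligases: the F-box binds an SKP1-related adaptor, which joins the cullin CUL-1, and the rest of the protein picks the target. MATH-BTB proteins do the same work for CUL-3, with the BTB domain on the cullin and the MATH domain on the target. Both families are greatly expanded in this worm, stand in tandem clusters on the outer parts of autosomes and differ much between related species and wild strains. HPL-2 is a homologue of heterochromatin protein HP1, whose chromodomain binds methylated lysine 9 of histone H3, a mark concentrated on those outer parts.

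The data set held 1 group of 2 ChIP-seq libraries, biological replicates 1 and 3, from mixed-sex whole larvae starved at the first larval stage (L1) after bleaching. Every animal was of strain YL474, which carries lin-35(n745) on chromosome I, unc-119(ed3) on chromosome III and the array vrIs64. The array expresses HPL-2 with a GFP and FLAG tag from the ges-1 promoter, an intestinal promoter, with the HPL-2 3-UTR and unc-119(+), and it makes the animals a model of tagged HPL-2 in cells that use that promoter. LIN-35 is the worm's retinoblastoma-like protein, and no animals with intact lin-35 and no second condition were among the samples. The labels name hpl-2 as the antibody and the tagged protein as the target, so it is not known here which was precipitated.

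The pooled list and each library's own list hold 30000 candidates each, and a thresholded list holds 857 regions, which are the 857 pooled candidates with the highest signal. The label of the thresholded list names IDR (irreproducible discovery rate), and not the signal, as what was thresholded. The authors label the lists of 30000 as peaks and background, so a candidate is not by itself a site of HPL-2. The signal is the authors' enrichment value for a region and was compared within 1 list only. Rank 1 is the highest signal of a list. The lists give no read counts, so the depth of the libraries is unknown. With 1 group there is no contrast between conditions, and since the members were chosen on the pooled list, the values below are descriptions with no test. They are set beside the same values over the 7918 protein-coding genes, of 19973, that had a pooled candidate within 500 bp of a 5′ end (39.6%).

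The strongest members are shown by the 30 bases of the plus strand around each pooled summit (build ce11, RefSeq copy of WBcel235), with the summit base in capitals. They are the 4 members in the thresholded list and bath-36, the next below it, at chrIII:10849048-10849077, chrV:724249-724278, chrII:1820069-1820098, chrV:17659449-17659478 and chrV:15187840-15187869.
fbxb-85: gcatcgagaaacgcgCaagccaatttattt
fbxb-72: gaaaaaatgaagtgaCacggatatgaggta
fbxc-19: ataggcaacatctgcTatagaggtttagag
fbxa-108: cgttgtcttatcactTgacttttcaatctt
bath-36: acccaatcatacgacAtgcgccatatctga

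Few F-box or MATH-BTB genes had a strong region. In the thresholded list stood 4 of the 121 members (3.31%, Wilson 95% interval 1.29 to 8.19, counting error only), against 667 of the 7918 genes (8.42%). All 4 were F-box genes. Neither of the MATH families had a thresholded member, which for 27 genes is a count too small to set apart from the background share. Weak regions made up the bulk: the members' signals ran from 7.93 to 68.2 with a median of 13.2, and the median over the 7918 genes was 13.6. The upper quartile was 18.3 for the members and 20.99 for all genes. Thus the middle of the distribution lay close to that of all genes, and the upper end lower. The −log10 of the pooled q-value was 3.23 at each of the 4 thresholded members. It was 0.41 at fbxc-47, the member whose signal was the median. Among the first 1714 ranks were 6 members (4.96%, against 14.4% of the 7918 genes). Beyond rank 15000 were 45 members (37.2%), a share near the 35.2% of all genes.

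**Figure D1:**
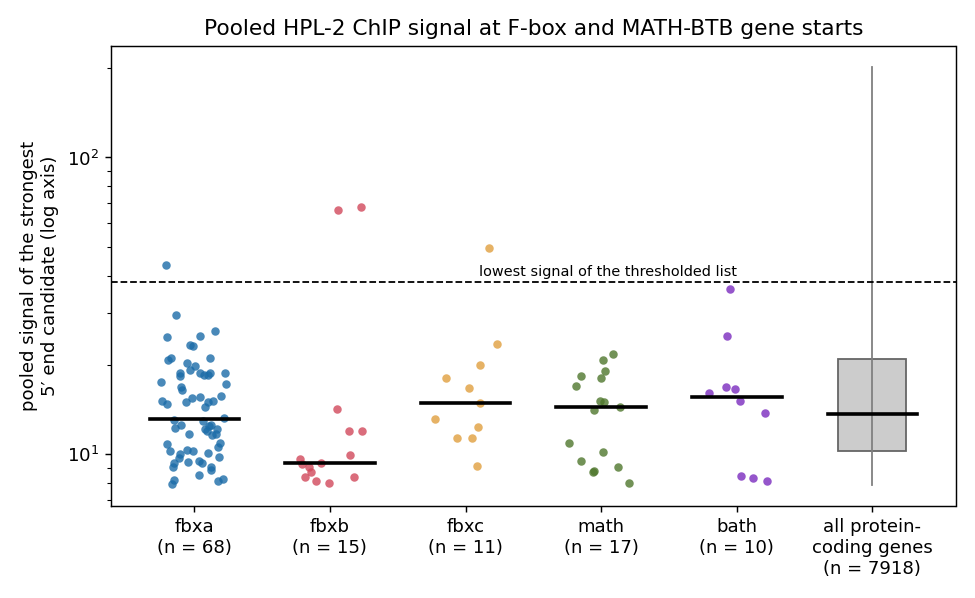
Pooled signal (log axis) of the strongest candidate at the 5′ end of each member, by family, with the median as a black bar. The grey column is the range, quartiles and median over the 7918 protein-coding genes, and the dashed line is the lowest signal of the thresholded list. Only 2 fbxb genes, 1 fbxc gene and 1 fbxa gene stand above the line, and the fbxb median of 9.32 is the lowest of the 5.

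The strongest member was fbxb-85 on chromosome III. Its region, chrIII:10848875-10849250, had a pooled signal of 68.2 at rank 182, a signal of 49.9 at rank 246 in replicate 1 and a signal of 18.99 at rank 165 in replicate 3. The summit lay 100 bp upstream of fbxb-85, between it and hex-3, a gene of the hexosaminidase family transcribed away from it, whose 5′ end was 159 bp away. The region cannot be given to either gene alone.

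Close behind came fbxb-72 on chromosome V, at chrV:724076-724451. It had a pooled signal of 66.4 at rank 208, a replicate 1 signal of 51.97 at rank 219 and a replicate 3 signal of 19.4 at rank 153. Here the summit was 312 bp upstream of fbxb-72 and 68 bp beyond the 3′ end of icl-1, which lies on the same strand and encodes the glyoxylate cycle enzyme by which the larva turns fat into carbohydrate. Both libraries thus placed the regions of fbxb-85 and fbxb-72 among their own 857 highest, and these were the only 2 of the 121 members of which that was true (1.65%, against 3.99% of the 7918 genes).

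The other pair of thresholded members was uneven between the libraries. For fbxc-19, at chrII:1819896-1820271, the pooled signal was 49.6 at rank 467, with rank 280 in replicate 1 and rank 1709 in replicate 3. Its summit was 395 bp upstream of fbxc-19, in an exon of fbxa-3, an F-box gene on the opposite strand, and 158 bp from the long intergenic RNA gene linc-16. For fbxa-108, at chrV:17659276-17659651, the pooled signal was 43.5 at rank 621 and replicate 1 gave rank 426, while replicate 3 held no candidate that overlapped it. A library's share in a pooled signal is not given by the lists, so what replicate 3 added at fbxa-108 is not known.

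Just below the thresholded list, whose lowest signal was 37.9, stood bath-36, the strongest MATH-BTB gene. Its region at chrV:15187667-15188042 had a pooled signal of 36.2 at rank 952, with rank 204 in replicate 3 but only 1956 in replicate 1. The summit was 33 bp upstream of bath-36, 134 bp from the noncoding gene Y75B12B.16 and 477 bp from the 5′ end of cyn-7, a cyclophilin gene on the opposite strand. Of the members outside the thresholded list, bath-36 and fbxa-13 (replicate 3 rank 825, replicate 1 rank 15694, pooled rank 5574) were the only ones with a region among the top 857 of a library, both in replicate 3.

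The remaining members of the first 10 were mostly fbxa genes of the left end of chromosome III. The fbxa-6 region, chrIII:2841-3216, had a pooled signal of 29.3 at rank 1545 and lay within the first kilobases of the chromosome, with the 5′ ends of cTel54X.2 and npr-30 in reach as well. Signals of 26.1 for fbxa-63, 25.09 for fbxa-10 and 24.9 for fbxa-73 followed on the same chromosome. Between them ranked bath-39 on chromosome V, with a signal of 25.1, whose summit lay 129 bp inside the gene and 62 bp beyond the 3′ end of F25H9.2. For the math family, whose names mark the MATH domain alone, the highest signal was 21.8, at math-16 on chromosome II (rank 3170).

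Agreement between the libraries was limited, for these genes as for all genes. A candidate of replicate 1 overlapped the pooled region of 96 members (79.3%, against 83.3% of the 7918 genes), and a candidate of replicate 3 that of 68 (56.2%, against 59.0%). Both libraries had one for 50 members (41.3%, Wilson 95% interval 32.9 to 50.2), against 48.0% of all genes. Only replicate 1 had one for 46 members, against 2797 of the 7918 genes, and only replicate 3 for 18, against 875. The remaining 7 members had a region in the pooled list that neither library listed, as had 449 of the 7918 genes. The share in both libraries was thus near that of genes in general.

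At the top of each library's list the members were few. The top 857 regions of replicate 1 included the region of 4 members (3.31%, against 8.12%), and those of replicate 3 the region of 4 (3.31%, against 7.01%). Both background shares lie inside the Wilson interval of the members' share, 1.29 to 8.19. These are not the same 4 genes: fbxb-85 and fbxb-72 are common, fbxc-19 and fbxa-108 came from replicate 1, and bath-36 and fbxa-13 from replicate 3. Over the 47 distinct regions of members that both libraries listed, Spearman's rho of the 2 signals was 0.37, and it was 0.46 over 3314 regions of all genes. The libraries share the control file of their peak calls, and the regions were picked on the pooled list, so rho is given as a description without a p-value.

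**Figure D2:**
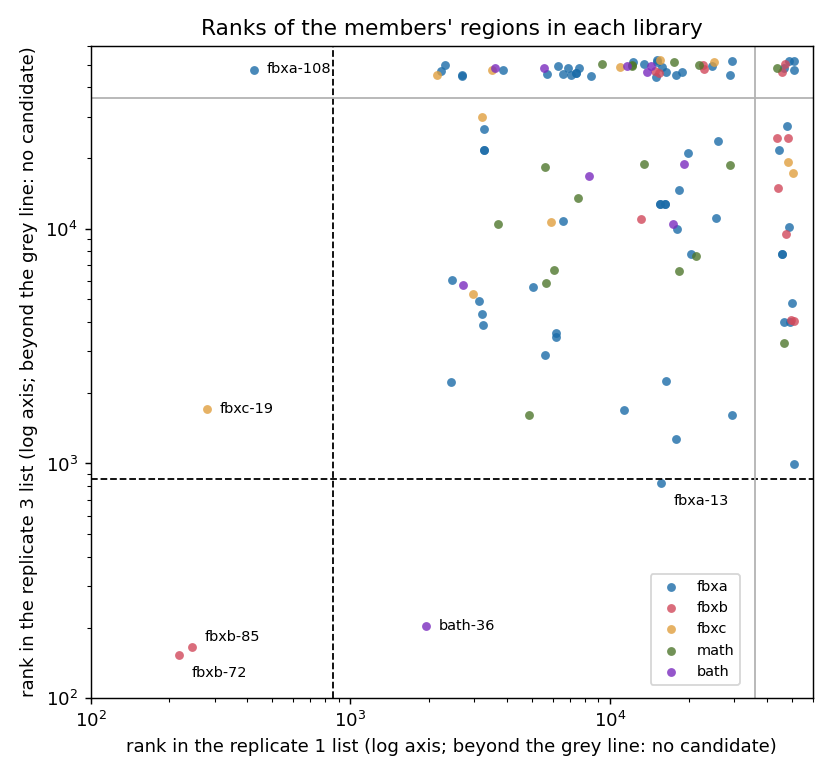
Rank of each member's region in the replicate 1 list (x) and the replicate 3 list (y), both log axes, where a low rank is a high signal. Points beyond a grey line had no candidate in that library, and dashed lines mark rank 857. The points of fbxb-85 and fbxb-72 lie in the lower left corner, inside both dashed lines, and no other member does.

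Of the 5 strongest regions of members that lacked a candidate in 1 library, every one lacked it in replicate 3. Over the 7918 genes too, absence from replicate 3 alone (2797 genes) was more common than absence from replicate 1 alone (875). The 5 regions were those of fbxa-108, fbxa-10 (pooled signal 25.09), fbxc-58 on chromosome IV (23.6), fbxa-134 on chromosome V (20.3) and, with 1 region between them, fbxa-76 and fbxa-77 (18.8). The highest that lacked one in replicate 1 was fbxa-86 on chromosome IV (pooled rank 7130, replicate 3 rank 991), chosen for mention after its values were seen.

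By family, the share of genes that had any candidate spread widely, and since the rule used it, it is given with no test. It was 45.9% for math (17 of 37), 40.0% for fbxa (68 of 170), 27.8% for bath (10 of 36), 22.9% for fbxc (11 of 48) and 14.4% for fbxb (15 of 104). The fbxb family combined the lowest share and the lowest median signal (9.32, median rank 22589) with the 2 strongest members. Apart from fbxb-85 and fbxb-72, the highest fbxb signal was 14.2, at fbxb-90. Medians of the other families were 13.1 for fbxa, 14.9 for fbxc, 14.4 for math and 15.6 for bath. Family shares in both libraries ran from 3 of 15 members for fbxb to 10 of 17 for math.

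Members were spread unevenly over the chromosomes. Shares of family genes with a candidate ran from 5.88 to 43.7%, against 34.96 to 48.8% of all protein-coding genes. Chromosome II held 50 members of 168 family genes (29.8%, against 35.7% of all protein-coding genes there), among them all 17 math members. Chromosome III held 31 of 71 (43.7%, against 48.8%), all but fbxb-85 of the fbxa family, and chromosome V 30 of 90 (33.3%, against 34.96%). Lower shares were seen on IV (7 of 28, 25%, against 40.9%), on I (2 of 21, 9.52%, fbxa-145 and fbxb-70, against 44.5%) and on X, where fbxa-96 was the only member among 17 family genes (5.88%, against 37.8% of all protein-coding genes on X). The fbxa-96 region (pooled signal 11.6, rank 14449) was in neither library's own list. The outer parts of the autosomes, 25% of the length at each end, held 99 of the 120 autosomal members (82.5%), against 41.9% of the 6886 autosomal genes with a candidate. Of the 378 autosomal family genes, with or without a candidate, 330 lay there (87.3%), against 44.3% of all autosomal protein-coding genes. All 4 thresholded members lay there. In those parts 30% of family genes and 37.8% of all genes had a candidate, and the thresholded share among those was 4.04% and 8.73%. In the middle of the autosomes, 21 of 48 family genes had a candidate (43.8%, against 41.7% of all genes) and 0 of the 21 was thresholded, which allows a share of up to 14.3%.

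Family genes were grouped into clusters where neighbouring gene bodies were at most 50 kb apart and 5 or more genes joined, which gave 17 clusters with 254 of the 395 genes. The share with a candidate was 30.3% inside clusters (77 of 254) and 31.2% outside (44 of 141), and 1 of the 4 thresholded members was inside. With a gap of 20 kb the shares were 32.6% inside and 28.1% outside, and with 100 kb 2 of the 4 thresholded members were inside. The largest cluster, chrII:1510287-2168763, held 94 genes of all 5 families. There 36 had a candidate (38.3%), against 30.5% of the 105 other protein-coding genes in the same span. Its signals ran from 7.93 to 49.6 with a median of 11.4, the highest at fbxc-19. Members made up 17 of its 34 math genes, 5 of 14 bath genes, 8 of 33 fbxb genes, 4 of 8 fbxa genes and 2 of 5 fbxc genes.

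The fbxa clusters of the left arm of chromosome III were among the fullest. At chrIII:933422-963833, 6 of 10 genes were members, with fbxa-10 the highest, and both other genes in the span had a candidate. At chrIII:1239048-1384252, 14 of 27 were members (51.9%), led by fbxa-63, with signals from 9.05 to 26.1, while 1 of the 15 other genes in that span had a candidate. At chrIII:2219708-2314035, 7 of 15 were members, led by fbxa-73, and 7 of the 12 other genes had a candidate. None of these 3 clusters had a thresholded region at a family gene or at another gene in its span. The median signals of their members were 15.2, 12.9 and 12.2, on both sides of the median of 13.6 over the 7918 genes. Of all protein-coding genes on chromosome III, 48.8% had a candidate.

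Other clusters had few members or none. The cluster of fbxc and fbxb genes at chrII:868814-1049949 had 1 member among 26 genes, fbxc-36 (signal 11.3), and 3 of the 24 other genes in that span had a candidate (12.5%). None of the 12 fbxb genes at chrV:19233769-19330757 had a candidate, which allows a share of up to 25%, while 6 of the 18 other genes in that span did. None of the 10 fbxc genes at chrIV:891239-911196 did either (up to 30%). In that last cluster the annotation gives the names fbxc-4, fbxc-5 and fbxc-8 to several loci, with fbxc-12 beside them.

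**Figure D3:**
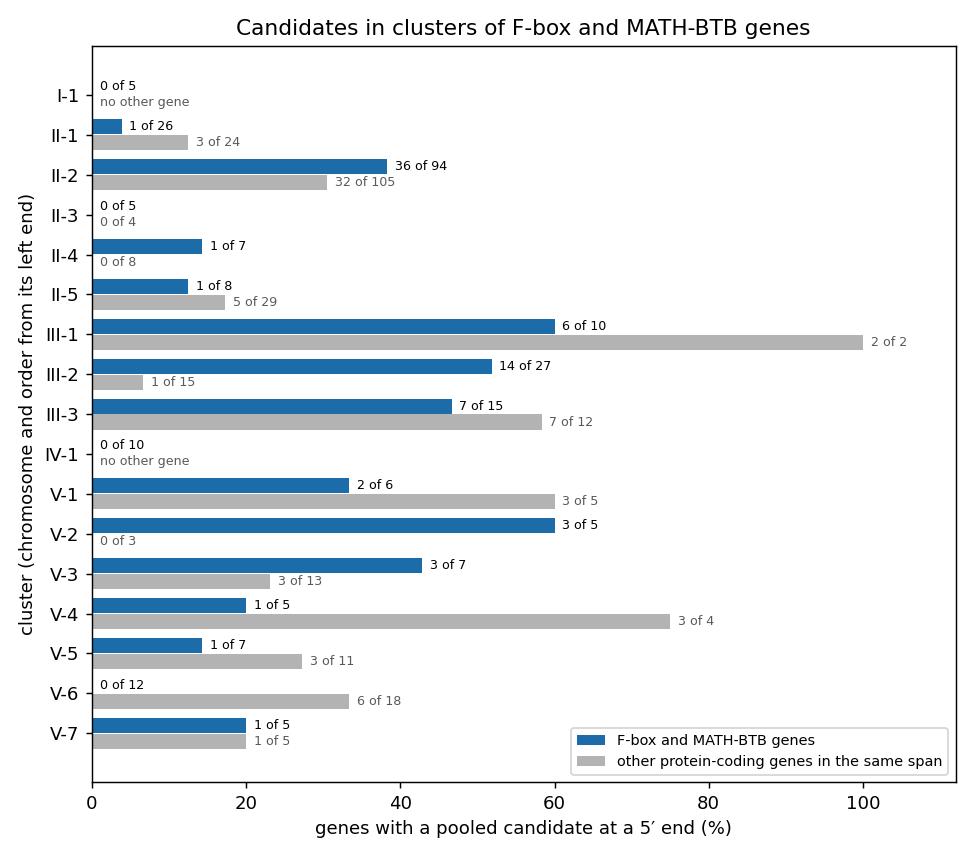
Share of genes with a pooled candidate at a 5′ end in each cluster, for F-box and MATH-BTB genes (blue) and for other protein-coding genes in the same span (grey), with the counts printed. Clusters are named by chromosome and order from its left end: II-2 is the largest with 36 of 94, III-1 to III-3 reach 46.7 to 60.0%, and IV-1 and V-6 have none.

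Near-identical sequence bears on how well such genes can be read. A 5′ end was said to have a copy when at least 150 bp of the 376 bp around it matched another place in the genome at 95% identity or more. That held for 2 of the 121 members (1.65%), for 41 of the 274 family genes without a candidate (14.96%) and for 5.06% of all protein-coding genes. All 10 genes of the empty fbxc cluster on chromosome IV had such a copy, whereas none of the 12 genes of the empty fbxb cluster on chromosome V had. Reads from near-identical copies may have been dropped or shared by the authors' alignment, and the part this plays in the missing candidates was not tested. Of the members' own regions, only that of math-1 (pooled signal 8.73) had a copy, and it had 9.

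**Figure D4:**
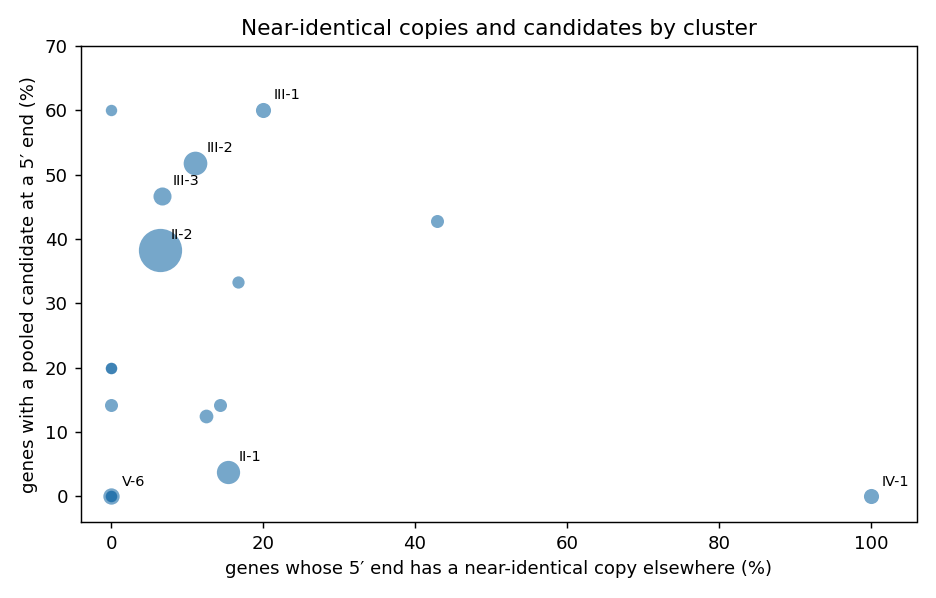
Share of each cluster's genes whose 5′ end has a near-identical copy elsewhere (x) against the share with a pooled candidate at a 5′ end (y), with the point's area growing with the number of genes and names on clusters of 10 or more. IV-1 stands alone at 100% copies and no candidate, and V-6 has neither (smaller clusters lie on the same spot).

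The members' summits lay at a median of 228 bp from the 5′ end, against 203 bp for all genes, and upstream of it for 83 members (68.6%, against 65.0%). In the bath family 7 of 10 summits lay inside the gene instead. Between protein-coding genes were 68 summits (56.2%, against 51.5%), in exons 40 (33.1%, against 25.7%) and in introns 13 (10.7%, against 22.9%). The annotated 5′ ends of many worm genes are trans-splice sites and not starts of transcription, so these distances are to the annotation. At the edge of the rule, the last members inside were fbxc-44 (493 bp, signal 16.7), bath-46 (490 bp, 16.9) and, both at 486 bp, fbxa-164 (21.1) and bath-9 (16.6). The first family genes outside were fbxa-107 (503 bp, signal 9.93), math-33 (506 bp, 42.8) and fbxb-17 (508 bp, 9.49). The math-33 region, chrV:11113213-11113588, was in the thresholded list at rank 653, so a limit 6 bp wider would have given the math family a thresholded gene.

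Several regions had their summit within 500 bp of the 5′ ends of more than 1 gene. The 5′ end of another protein-coding gene was in reach of the summit for 31 of the 121 members and for 1527 of the 7918 genes. The 121 members had 115 distinct regions, because 6 regions were each shared by a pair of members: fbxa-76 and fbxa-77, fbxa-11 and fbxa-67, fbxa-26 and fbxa-27, and fbxa-19 and fbxa-80 on chromosome III, fbxa-18 and fbxa-88 on V, and fbxb-51 and fbxb-52 on II. The summit lay between the genes of the pair on chromosome III, but inside fbxa-88 and inside fbxb-52 at the last pairs. Another 19 members shared the summit's reach with the 5′ end of a gene outside the families. For 8 members that other gene was the nearer one, such as csc-1, a subunit gene of the chromosomal passenger complex, at the fbxc-23 region. For 107 of the 121 the member's own 5′ end was the nearest (88.4%, against 90.4% of all genes).

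Sequence within 100 bp of the members' summits had a mean GC content of 34.1% ± 5.29 (SD over 121 members), against 36.02% ± 6.45 (SD over 7918 genes). Masked repeats covered 34.6% ± 19.8 and 33.7% ± 21.3. The spread of single genes is wide in both sets, and the difference of the means was not tested. Mean GC was highest in the bath family, at 37.9% ± 5.92 (SD over 10 members).

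Of 4 sequence words searched on both strands in that window, TGATAA, the core bound by the GATA factors that include the intestinal ELT-2, was the one whose share differed most from that of all genes. It was present for 47 members (38.8%, against 22.6% of the 7918 genes), for 10 of 17 math members, 30 of 68 fbxa members (44.1%), 3 of 10 bath members, 2 of 11 fbxc members (18.2%) and 2 of 15 fbxb members (13.3%). By its letters TGATAA cannot overlap any of the other words in any sequence, so the lack of such overlaps carries no information. A scrambled word of the same letters, AATAGT, chosen after the values were seen, was present for 15.7% of members, against 14.1% of all genes. In the 250 bases before to 50 after the 5′ end, TGATAA was found for 50.4% of members, 28.8% of family genes without a candidate and 30.2% of all protein-coding genes, with mean GC of 33.6, 36.6 and 34.8%. AATAGT was found there for 28.9% of members, 21.5% of family genes without a candidate and 21.97% of all genes, so the scrambled word too was more frequent at the members in this wider window. By family, all genes counted, TGATAA was in 56.8% of math, 45.9% of fbxa, 37.5% of fbxc, 27.8% of bath and 12.5% of fbxb genes. The scrambled word was likewise most frequent in math (29.7%) and fbxa (28.8%), against 22.2% of bath, 17.3% of fbxb and 16.7% of fbxc genes. The families also differ in how many genes are members, with 15 of 104 for fbxb and 68 of 170 for fbxa. Members and family genes without a candidate were not compared within a family. A match is a description of letters and not a bound site, and the parts of base composition and of the mix of families in these shares were not tested.

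The neighbouring genes math-39 (pooled signal 19.01) and math-40 (18.3), in the large cluster on chromosome II, show the word in near-copies of 1 sequence, with 2 of 30 bases different. Their windows are at chrII:1832068-1832097 and chrII:1830369-1830398 on the plus strand, 12 and 45 bp from the summit, with the word in capitals.
math-39: ttctctatgcacTGATAAcgagcataatgt
math-40: ttctctacgcacTGATAAcgagcataatgc

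The other words were no more frequent at the members than elsewhere by more than a few points. GAGAGA was present for 15.7% (against 17.0%) and TTTGAA, the core of the CHR element, for 50.4% (against 47.5%). TTNNCGC, where N is any base, covers the sites of E2F factors, the DNA-binding partners of LIN-35, and other sequences as well, so a match need not be such a site. This word was found for 27 members (22.3%, against 30.4%). It was present at fbxb-85 and bath-36 and absent within 100 bp of the summits of fbxb-72, fbxc-19 and fbxa-108. Its nearest matches are shown in capitals, for fbxb-85 on the minus strand of chrIII:10849005-10849034 and for bath-36 on the plus strand of chrV:15187875-15187904, 43 and 35 bp from the summit.
fbxb-85: tgctgacgcacTTGTCGCacacctcactgc
bath-36: ctttcgctgtgtTTCCCGCcttttgtcaac

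The ubiquitin ligase genes with which these families work were read from a list of 44 genes: cullins, RING subunits, SKP1-related genes, their regulators and well-studied F-box or MATH-BTB genes with other names. Of the 43 found in the annotation, 23 had a candidate at the 5′ end (53.5%, against 39.6% of all genes), with signals from 8.13 to 38.98 and a median of 18.2. The only thresholded one was dcn-1, which promotes attachment of NEDD8 to cullins, with a signal of 38.98 at rank 811 (1 of 23, 4.35%, against 8.42%). Candidates lay at 7 of the 20 SKP1-related genes. Of the cullins, cul-3, which works with MATH-BTB proteins, stood at the median of the list, with 18.2. The gene cul-1, whose product works with F-box proteins, stood below it, with 10.1. Stronger ones lay at ubc-3 (36.8, rank 910), skr-3 (36.3, rank 943), sel-10, the F-box gene that acts on LIN-12 Notch (31.6, rank 1294), and mel-26, the MATH-BTB gene that removes the katanin MEI-1 after meiosis (28.7, rank 1627), named after their values were seen.

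Among the 274 family genes without a pooled candidate in reach, 31 had a candidate at the 5′ end in the replicate 1 list, 44 in the replicate 3 list and 2 in both. Neither list had one for the other 201. The same counts were not made over all protein-coding genes, so these are not read as particular to the families. A single one of the 274, math-33, had a region in the top 857 of a library at its 5′ end (replicate 1 signal 33.1, rank 675).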

How the data were processed

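The authors deposited ce11 region lists for each library and for both pooled. Per the deposited file listings, candidates were derived from a library's alignments and 1 control file. Aligner and peak caller: not given in the sources used here. Per the file listings, column 7 of each deposited list is a signal, the authors' enrichment value per region, and column 9 is the −log10 of a q-value. Ranks follow the signal. Depth is unknown. Wilson intervals, and the upper limit taken as 3 counts where none was seen, cover only counting error.

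Summits were set against 5′ ends of protein-coding transcripts (Ensembl release 115). ce11 has the sequence of WBcel235, so coordinates were used as given, 1-based. A gene took its strongest region. A library held a region when at least 1 bp overlapped. Copies were sought with blastn 2.17.0. Python 3.11.15 (numpy 2.4.6, scipy 1.17.1) was used, with figures drawn by matplotlib 3.10.9, and lookups were tested on simulated data. The ce10 lists were not used here.

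The members, families, clusters, words and partner list were chosen with earlier results of these data known. Named genes are the thresholded members, the 10 highest, the highest of each family and of each cluster with 5 or more members, the 3 next below the threshold, the 5 highest lacking a candidate in 1 library, the 3 nearest the 500 bp limit on either side and thresholded partner genes. Other genes, among them math-39, math-40, fbxc-36, fbxb-90, fbxc-23 and the only members on chromosomes I and X, were named after their values were seen. No test was run.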

Additional observations from a re-analysis of the deposited data

How the results depend on the processing

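Counts that use the distance limit moved with it. With 250 bp, 75 family genes had a pooled candidate, 2 of them thresholded, 33 had one in both libraries and 1 was in the top of both. With 1000 bp, 8 were thresholded. Among the 428 highest regions of the thresholded list stood those of 2 members. When a library's summit had to lie within 100 bp of the pooled one, 26 members had a candidate in both libraries. From 1 library's list alone, without replicate 1 and without replicate 3, 113 and 126 family genes had a candidate, of which 69 and 95 are members. Of the 113 and 126, 4 and 5 were in that library's top 857 (3.54% and 3.97%, against 7.45% and 8.16% of all genes with a candidate there), with a median rank of 10701 and 14953. The thresholded share was 2.67% at 250 bp, against 7.75% of all genes with a candidate under that setting, 4.71% at 1000 bp, against 8.03%, and 3.60% with each region given to its nearest gene only, against 6.90%. In the 428 highest regions it was 1.65%, against 4.32%. The cause of these shifts was not tested. Cluster gaps of 20 and 100 kb put 73 and 80 members in clusters, against 77 with 50 kb. Limits: 2 libraries of 1 strain, no control group and unknown depth, so a missing candidate does not show that HPL-2 is absent. The signal is the caller's, nearly all candidates of a list have 1 width (29962 of 30000 pooled ones 376 bp), and broad domains were not measured.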
